A study of Rattus norvegicus with 24 samples.

Results

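The choroid plexus is the epithelium inside the brain ventricles that secretes cerebrospinal fluid. The genes described here are Ttr, Folr1, Clic6, Kl, Kcnj13 and Otx2, which were chosen by symbol as genes of this epithelium. All 6 were found among the 17420 genes of the deposited table, and all 6 were among the 13786 genes that had a value above the deposited offset in at least 12 of 24 pups and were tested. RNA was sequenced from hippocampus pooled with neocortex in 24 rat pups at embryonic day 18, with 6 pups in each of 4 groups and 3 pups from each of 2 litters per group. The dams were timed-pregnant Sprague-Dawley rats. Control dams received saline and a diet with 20.3% protein. MAM (methylazoxymethanol acetate, 22 mg/kg) or Poly I:C (polyinosine:cytosine, 7.5 mg/kg) was injected intraperitoneally on gestational day 17, 18 hours before collection. Low Protein dams were fed a diet with 6.1% protein from gestational day 11. The diet of the MAM and Poly I:C dams is not stated, nor is an injection of the Low Protein dams. Pups are named by group and a number that is read here as litter and pup, so that MAM 1.3 is pup 3 of MAM litter 1. The labels do not state this reading in words. The dam received the treatment and each group rests on 2 dams, whereas the pup was the replicate in the tests. The p-values therefore measure the spread between pups.

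In the developing forebrain the choroid plexus epithelium forms at the dorsal midline, beside the cortical hem that borders the hippocampus. Its cells move ions and water into the ventricle, carry folate and hormones between blood and cerebrospinal fluid, and bear cilia. Transthyretin, the product of Ttr, is its best known secreted protein and carries thyroxine and retinol-binding protein. Folr1 encodes the folate receptor that passes folate into the cerebrospinal fluid. Kl encodes klotho, a co-receptor for the hormone FGF23. Kcnj13 encodes the inwardly rectifying potassium channel Kir7.1, and Clic6 a member of the chloride intracellular channel family. Otx2 encodes a homeodomain transcription factor that the epithelium needs to form. In RNA from a whole dissected region, fewer choroid plexus cells and less RNA per cell cannot be told apart.

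OTX proteins bind DNA around the letters TAATC, and the promoters that could be matched to members were searched for these letters. RefSeq promoters of the GRCr8 assembly were matched for 3 of the 6 members, and the 250 bases before the start of the gene are printed 5′ to 3′ with TAATC, or GATTA on the other strand, in capitals.
Ttr: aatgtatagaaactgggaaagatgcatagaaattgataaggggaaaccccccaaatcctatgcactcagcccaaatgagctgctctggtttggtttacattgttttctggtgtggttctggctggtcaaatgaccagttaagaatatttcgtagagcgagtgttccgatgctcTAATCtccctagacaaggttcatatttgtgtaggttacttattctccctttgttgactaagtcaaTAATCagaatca
Kl: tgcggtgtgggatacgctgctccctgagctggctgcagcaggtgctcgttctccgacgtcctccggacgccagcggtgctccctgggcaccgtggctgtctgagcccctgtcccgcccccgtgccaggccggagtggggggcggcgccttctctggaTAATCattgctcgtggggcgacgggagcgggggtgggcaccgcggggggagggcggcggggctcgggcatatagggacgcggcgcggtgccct
Kcnj13: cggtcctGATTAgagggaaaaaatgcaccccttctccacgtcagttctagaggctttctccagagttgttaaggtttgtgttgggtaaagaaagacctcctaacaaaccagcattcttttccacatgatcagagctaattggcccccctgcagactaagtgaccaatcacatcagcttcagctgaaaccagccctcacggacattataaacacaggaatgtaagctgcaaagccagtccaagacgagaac
The Ttr stretch lies at chr18:12218508-12218757 on the plus strand and holds TAATC at 77 and 12 bases before the start. The Kl stretch lies at chr12:5325753-5326002 on the plus strand, has a GC content of 73.2% and holds TAATC at 93 bases before the start. The Kcnj13 stretch lies at chr9:95518987-95519236 on the minus strand and holds GATTA at 243 bases before the start. Searched on both strands, TAATC occurred in all 3 promoters and in 20.5% of 33469 promoters of the same length. The longer TAATCC, which contains TAATC, occurred in 0 of the 3 and in 6.34% of all promoters. GTAAACA, which forkhead factors bind, occurred in 0 of the 3 and in 3.21% of all. The TATA box letters TATAAA occurred in 12.9% of all promoters and, of the 3, in that of Kcnj13. These matches describe letters in the stretch and are no evidence of binding.

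The deposited unit is TPM with an offset of 0.0001, normalized by sample. The lengths behind it are not given in the sources used here, so the order of different genes by level is approximate. Ttr had by far the highest level of the members, with a mean of 148.6 over the 24 pups and place 53 among the genes tested. Folr1 followed with 0.786, Kcnj13 with 0.781, Clic6 with 0.562, Otx2 with 0.414 and Kl with 0.122. Ttr was thus among the most abundant transcripts of the dissected tissue, while the other members lay in the middle and lower range. The deposited table holds no read counts. The reads behind a value were estimated from the smallest steps of low values, multiplied by the genomic span of each gene in another assembly. In each pup 48.3% to 54.0% of the low values lay within 0.05 of a whole number of steps and the remainder did not, so that these estimates are rough. These estimates gave 24.4 to 63.3 M reads per pup (M, mega), with a median of 36.8 M. They gave a median of 67450 reads per pup for Ttr, 241 for Kl and 171 for Otx2. The lowest estimate for any member was 45 reads, for Kl, where counting alone would give an error of 14.9%. The neocortical and hippocampal genes Neurod6 and Tbr1 were high in all pups, with a median of 96.1 and 14.1 over 21 pups.

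A set of 3 pups stood apart. MAM 1.3, MAM 2.3 and Poly I:C 1.3 held the 3 lowest values of each of the 6 members. Over all genes tested, these 3 pups held the 3 lowest values for 211 genes, or 1.53%, and the 3 highest for 0 genes. They come from 3 different litters, and their estimated depths of 53.5, 46.4 and 28.5 M reads lay within the range of the other pups. All 3 carry pup number 3, which was seen after the values were examined. In the mean log2 value of the 6 members, pup 3 was the lowest of its litter in 8 of 8 litters. By member this was so in 8 litters for Clic6, 7 for Folr1 and Otx2, 5 for Ttr and Kl and 4 for Kcnj13. Of all genes tested, 7.10% had pup 3 lowest in at least 7 litters, which held for 3 members, and 1.57% in all 8. Pup 1 was lowest in at least 7 litters for 130 genes and pup 2 for 7 genes, against 979 for pup 3. By the mean of a list, pup 3 was lowest in 7 litters for endothelium and for thyroid and retinol genes. It was lowest in 6 for the other choroid plexus genes, motile cilia, relatives of the members, meninges and thalamus. This was so in 5 litters for cortical hem and striatum, and 4 for blood and for hippocampus and neocortex. It was so in 3 for folate and eye genes and 1 for klotho partners (3 genes tested). What the number stands for is not stated in the sources used here, and each group holds 2 such pups. Its part in the results was not tested beyond comparisons without these pups and a fit with a replicate block, which joins litter and pup number. Poly I:C 2.2 lay at the other end, with the highest value of all 6 members. That pup held the highest value for 4.75% of all genes tested. Because the 3 low pups were recognised from these same values, comparisons are given with and without them, and no test was made between them and the other pups.

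**Figure D1:**
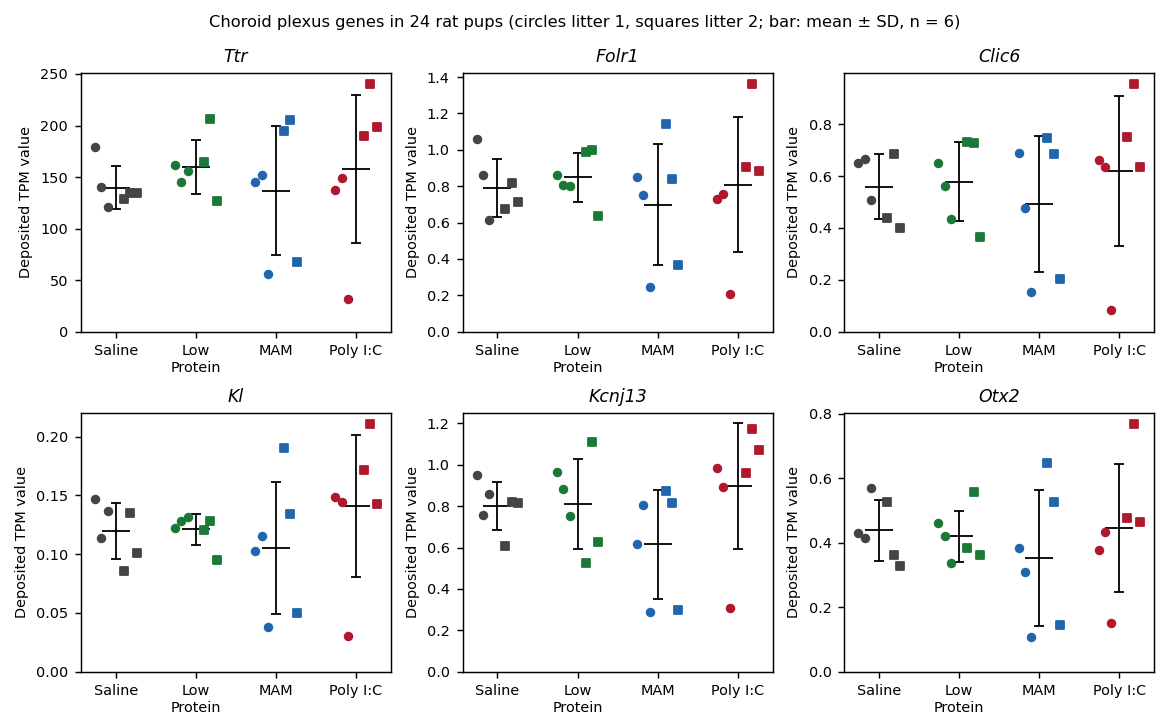
Deposited TPM values (linear axes starting at 0) of the 6 choroid plexus genes in each pup, by group, with circles for litter 1, squares for litter 2 and bars for the mean ± SD of 6 pups. In every panel 2 MAM pups and 1 Poly I:C pup lie below all other pups, and Poly I:C 2.2 lies highest.

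Ttr values ranged from 120.5 to 179.6 in saline pups (median 134) and from 127 to 206 in Low Protein pups (median 159). In MAM pups they ranged from 55.6 to 206 (median 148), and in Poly I:C pups from 32.0 to 240.3 (median 169.6). The MAM and Poly I:C pups thus lay both below and above all saline pups, and every group overlapped with saline. Ttr was 55.6 in MAM 1.3 and 68.1 in MAM 2.3, against 145 to 206 in the other 4 MAM pups. It was 32.0 in Poly I:C 1.3, 5.92-fold lower than the median of the other 5 Poly I:C pups. The group means were 139.8 ± 20.6 (SD, n = 6) for saline and 160.0 ± 26.4 for Low Protein pups, 137 ± 62.8 for the MAM group and 158 ± 71.9 for the Poly I:C group. The order of these means was Low Protein, Poly I:C, saline and MAM, and neighbours in it differed by less than the SD of either group.

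Folr1 showed the same arrangement of pups. Its values ranged from 0.615 to 1.06 in saline pups (median 0.766) and 0.635 to 0.998 in Low Protein pups (median 0.836). The 6 MAM pups lay between 0.244 and 1.14 (median 0.796), and those of the Poly I:C group between 0.208 and 1.36 (median 0.819). The 2 low MAM pups were at 0.244 and 0.365, against at least 0.751 in the other MAM pups. Poly I:C 1.3 was 4.24-fold lower than the median of the other Poly I:C pups. The receptor therefore spanned a wider range in the groups that hold the 3 low pups, with SDs of 0.334 (MAM) and 0.372 (Poly I:C) against 0.160 (saline) and 0.135 (Low Protein). Every group overlapped with saline for Folr1 and for the other members below.

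Kl, the FGF23 co-receptor, had the lowest mean deposited value of the members, although its median of estimated reads (241) exceeded that of Otx2 (171). Kl ranged from 0.0861 to 0.147 in saline pups (median 0.125) and 0.0948 to 0.132 in Low Protein pups (median 0.125). The 6 MAM pups lay between 0.0380 and 0.190 (median 0.109), and those of the Poly I:C group between 0.0300 and 0.211 (median 0.146). The 3 low pups were at 0.0380, 0.0502 and 0.0300, whereas the lowest of the other 21 pups was a saline pup. The Low Protein pups were close together, with an SD of 0.0135, except for Low Protein 2.3 at 0.0948.

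The potassium channel gene Kcnj13 ranged from 0.605 to 0.953 in saline pups (median 0.816) and 0.527 to 1.11 in Low Protein pups (median 0.819). The 6 MAM pups lay between 0.288 and 0.872 (median 0.710), and those of the Poly I:C group between 0.306 and 1.17 (median 0.973). It was the member in which the 3 low pups were most alike, at 0.288, 0.296 and 0.306. Clic6, the chloride channel family member, ranged from 0.400 to 0.686 in saline pups (median 0.580) and 0.365 to 0.731 in Low Protein pups (median 0.606). The 6 MAM pups lay between 0.152 and 0.746 (median 0.580), and those of the Poly I:C group between 0.0854 and 0.953 (median 0.648). In Clic6 the 3 low pups were spread out, with 0.152 and 0.203 in MAM and 0.0854 in Poly I:C 1.3. That last value was 7.72-fold lower than the median of the other Poly I:C pups, the greatest such distance of any member.

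The transcription factor gene Otx2 ranged from 0.327 to 0.571 in saline pups (median 0.423) and 0.338 to 0.556 in Low Protein pups (median 0.402). The 6 MAM pups lay between 0.108 and 0.647 (median 0.347), and those of the Poly I:C group between 0.151 and 0.769 (median 0.448). MAM 1.3 was lowest for Otx2 at 0.108, followed by MAM 2.3 at 0.144 and Poly I:C 1.3 at 0.151. Over the 6 members, MAM 1.3 was 2.81- to 4.53-fold lower than the median of the other 4 MAM pups. MAM 2.3 was 2.32- to 3.38-fold lower, and Poly I:C 1.3 was 3.07- to 7.72-fold lower than the median of the other 5 Poly I:C pups. The fold by which a pup was low therefore differed between members of the same pup.

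The first comparison asks whether a low protein diet changed the choroid plexus genes. With limma, 0 of the 6 members differed between Low Protein and saline pups, whether at an adjusted p under 0.05 (0% of all genes tested) or at an unadjusted p under 0.05 (7.11% of all genes). Low Protein and saline pups overlapped for every member (no overlap for 0.689% of all genes). The log2 fold change was 0.19 (standard error 0.37, limma adjusted p = 0.962) for Ttr, 0.11 for Folr1, 0.04 for Clic6, 0.03 for Kl, -0.01 for Kcnj13 and -0.06 for Otx2. Adjusted p-values of the 6 lay between 0.962 and 0.996, and exact two-sided permutation tests gave p = 0.160 for Ttr and 0.480 to 0.946 for the others. With 6 pups against 6 the smallest p of this test is 0.00216. The low pups of the other groups widen the shared standard error, and without them the Ttr change of 0.19 had a standard error of 0.14 (adjusted p = 0.779).

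In MAM, all 6 members had a log2 fold change below 0, and 0 of 6 passed at an adjusted p under 0.05 (0.0145% of all genes) or at an unadjusted p under 0.05 (9.45%). The pups overlapped with saline for every member (no overlap for 0.856% of all genes). The changes ranged from -0.56 for Otx2 (standard error 0.37, limma adjusted p = 0.590) and -0.51 for Kcnj13 (standard error 0.31, adjusted p = 0.565) to -0.18 for Ttr (standard error 0.37, adjusted p = 0.879). Those of Clic6, Kl and Folr1 were -0.39, -0.37 and -0.34. The median of the members was -0.38 against -0.07 over all genes tested. The direction depended on the low pups. Without the 3 of them, 5 of the 6 members were above 0, from 0.06 for Otx2 to 0.31 for Ttr, with Kcnj13 at -0.04, and the median was 0.17. Without them again 0 members passed at an unadjusted p under 0.05 (6.10% of all genes), the lowest adjusted p being 0.781, for Ttr (limma). Without all 8 pups numbered 3, the changes lay between -0.006 for Kcnj13 and 0.25 for Ttr, and 0 members passed at an unadjusted p. Over all alternatives, 491 to 1834 of all genes passed for MAM. Exact permutation tests on all pups gave p from 0.180 for Kcnj13 to 0.565 for Ttr.

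In Poly I:C, the members lay close to saline on average, with log2 fold changes from -0.14 for Folr1 to 0.06 for Kcnj13. Again 0 of 6 passed at an adjusted p under 0.05 (0% of all genes) or at an unadjusted p under 0.05 (9.08%), and all overlapped with saline (no overlap for 0.421% of all genes). The limma adjusted p-values lay between 0.947 and 0.985, and exact permutation p-values between 0.807 and 0.989. Leaving out the 3 low pups, of which 1 belongs to this group, moved all 6 members above 0. Without all 8 pups numbered 3, 1 member passed at an unadjusted p under 0.05, Kl, which was higher at 0.50 (limma adjusted p = 0.436), where 7.20% of all genes were higher. Without the 3 low pups, Kl was at 0.46 (standard error 0.16, limma adjusted p = 0.307), Clic6 at 0.39 (standard error 0.19, adjusted p = 0.471), Ttr at 0.37 (standard error 0.14, adjusted p = 0.353) and Kcnj13 at 0.35 (standard error 0.16, adjusted p = 0.429). Ttr, Kl and Kcnj13, 3 of 6 members, passed an unadjusted p under 0.05, all higher, where 10.9% of all genes passed in either direction and 5.57% were higher. After adjustment over all genes 0 of the 6 passed. The choice of these pups was made from the members' own values, so these p-values describe the pups left and are no independent evidence.

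**Figure D2:**
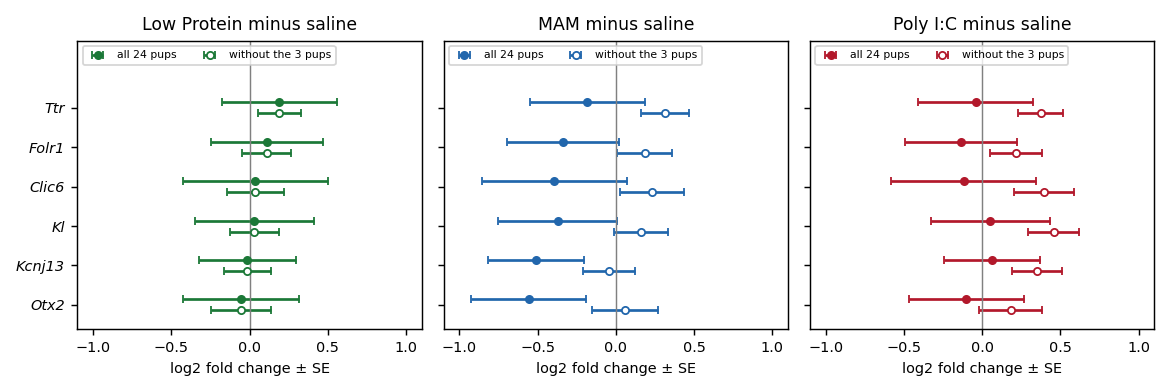
Log2 fold change against saline of each member (points, limma) with its standard error (bars), with all 24 pups (filled) and without the 3 low pups (open), in 1 panel per treatment. Without the 3 pups the bars are shorter, 5 of 6 MAM points and 6 of 6 Poly I:C points lie above 0, and the Low Protein points stay in place.

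Over the 4 groups together, a moderated F test (limma) found 0 of 6 members at an adjusted p under 0.05 (0.152% of all genes) and 0 at an unadjusted p under 0.05 (12.5%). The lowest adjusted p was 0.627, for Kcnj13. Differences between the 2 litters of a group were tested the same way, and again 0 of 6 passed either with adjustment (0% of all genes) or without (7.33%), the lowest adjusted p being 0.727 for Ttr. Most of the variance in log2 values lay between pups of the same litter, at 68.1% for Ttr, 69.1% for Otx2, 70.3% for Kcnj13, 70.8% for Folr1, 73.1% for Kl and 78.6% for Clic6. Groups accounted for 4.42% of the variance of Ttr and 16.6% of that of Kcnj13, the lowest and highest of the members. The medians over all genes tested were 14.8% between groups, 16.3% between litters and 65.7% within litters. All these shares are raw sums of squares, not corrected for the numbers of groups, litters and pups. A high share within litters is therefore no sign of an excess there. The widest gap between litters was in Poly I:C, where the 3 Ttr values of litter 2 lay from 189.8 to 240.3 and those of litter 1 at 32.0, 137 and 149. Without the 3 low pups, Kl passed the group test and Ttr the litter test at an unadjusted p under 0.05 (limma adjusted p = 0.463 and 0.684). Of the 13786 genes tested, 1482 passed this group test and 922 this litter test at the same threshold. The 3 pups were picked from the members' own values, so these passes are no independent evidence. Without these pups the share of the variance within litters had a median of 54.0% over the members.

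The members varied widely for their level. The SD of the log2 value over the 24 pups was 0.81 for Clic6, 0.67 for Kl and Otx2, 0.65 for Ttr, 0.63 for Folr1 and 0.58 for Kcnj13, against a median of 0.21 over all genes tested. Of the 9589 genes with a mean at least that of Kl, between 97.6% and 99.1% had a lower SD. In the 21 pups without the 3 low ones the SD was 0.28 for Ttr and Folr1, 0.30 for Kcnj13, 0.31 for Kl, 0.33 for Otx2 and 0.35 for Clic6. The log2 ratio of Ttr to Folr1 varied least of the 15 pairs of members, with an SD of 0.17 over 24 pups.

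Covariation was measured over the 21 pups, since the 3 low pups form a cluster of their own. With them the median r of the pairs was 0.89. Pearson's r was above 0 for all 15 pairs, from 0.41 for Folr1 with Kcnj13 to 0.85 for Ttr with Folr1, with a median of 0.58. Spearman's rho ranged from 0.36 for Clic6 with Kcnj13 to 0.85 for Ttr with Folr1, with a median of 0.49. In permutation tests (100000 resamples, adjusted over the 15 pairs), 14 pairs passed 0.05 by r and 12 by rho. The lowest r that passed was 0.44, and 12.2% of all pairs of genes tested had an r at least as high. For Ttr with Folr1 both p-values were 1e-05, the smallest these resamples can give (adjusted p = 0.00015). For Folr1 with Kcnj13 the permutation p of r was 0.0666 (adjusted p = 0.0666). Folr1 with Clic6 (r = 0.80), Clic6 with Kl (r = 0.71) and Kl with Kcnj13 (r = 0.69) came next. The secreted carrier and the folate receptor were thus the closest pair. Kcnj13 followed Kl closely and Clic6 and Folr1 more loosely. Without the 2 pups farthest from the median the median r was 0.58, from 0.31 to 0.77. Pups share a dam, so they are not fully independent, and with the litter means subtracted the median r was 0.46 (0.25 to 0.80).

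Within single groups the pattern was less even. In the 6 saline pups r ranged from -0.40 to 0.93 and was above 0 for 10 of 15 pairs. All 5 saline values below 0 involved Otx2, which was highest in Saline 1.3, the saline pup with the lowest Ttr and Folr1. In the 6 Low Protein pups r was above 0 for all 15 pairs, with a median of 0.65. The MAM and Poly I:C groups hold fewer than 6 pups without the low ones, and no r is given for them. When all other genes were ordered by r with Ttr over the 21 pups, Folr1 took place 5, whereas the lowest place of a member was 390. For Kcnj13 the places of the other members ran from 139 to 2694, and for Clic6 from 75 to 2251. They ran from 2 to 1461 for Folr1, 216 to 824 for Otx2 and 87 to 720 for Kl. Many genes outside the 6 thus followed a member more closely than some of the other members did, and Kcnj13 had the lowest such place.

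**Figure D3:**
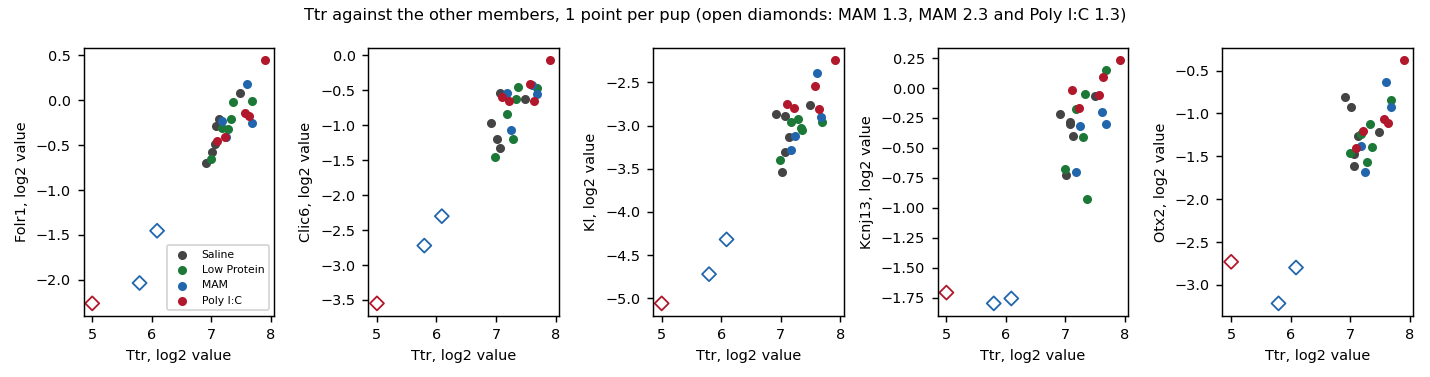
Log2 of the deposited TPM value of Ttr (x axes) against that of the other 5 members (y axes), 1 point per pup coloured by group, with open diamonds for MAM 1.3, MAM 2.3 and Poly I:C 1.3. The 3 diamonds lie apart at the lower left of every panel, and among the other 21 pups the r with Ttr runs from 0.55 for Kcnj13 to 0.85 for Folr1.

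The genes most like the 6 members were taken by Pearson's r between a gene's log2 value and the mean z-score of the members over the 24 pups, as a description. The first 10 were Krt8 (r = 0.99), Clu, Sostdc1, Tmem72, Kcne2, Cfap126, Mfrp, Aqp1, Calml4 and Cdh3 (r = 0.96). Krt8, a keratin of simple epithelia, was 0.265 in MAM 1.3, 0.365 in MAM 2.3 and 0.225 in Poly I:C 1.3, and 0.637 to 1.38 in the other 21 pups. Clu, which encodes the secreted chaperone clusterin, was 1.33, 1.44 and 1.23 in the same pups and 2.19 to 3.75 in the others. Aqp1, the water channel of the epithelium, was 1.22, 1.14 and 0.512, and 1.91 to 4.99 in the others. In all of these the 3 low pups lay below the range of the rest. Over the 21 pups alone, Krt8, Aqp1 and Mfrp (each r = 0.95) came first, and Clu (r = 0.94) followed. Within those pups Cfap126, a cilium gene, took place 96 with r = 0.74. At an r of at least 0.9 over the 24 pups there were 38 genes, or 0.276% of those tested, and at -0.9 or below there were 0.

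A list of 32 further choroid plexus epithelium genes, which includes Krt8, Sostdc1, Tmem72, Kcne2, Mfrp, Aqp1 and Calml4, gave 31 that were tested. It was drawn up with earlier results of these pups known and is no independent evidence. The 3 low pups held the 3 lowest values for 24 of the 31, or 77.4%, against 1.53% of all genes tested. Mfrp was 0.937, 1.42 and 0.545 in MAM 1.3, MAM 2.3 and Poly I:C 1.3, and 1.85 to 6.89 in the other pups. Sostdc1, an inhibitor of BMP and WNT signals, was 0.977, 1.27 and 0.661 in these pups and 2.10 to 4.63 in the others. Igfbp2, the most abundant gene of the list, is made by other cells as well. Its values were 5.77, 6.10 and 4.10, of which the second lay inside the 5.95 to 9.63 of the other pups. The genes for which the 3 pups were not lowest were Igfbp2, Wfdc2, Slc12a2, Slc13a4, Cab39l, Abca4 and Prlr. Wfdc2 was at 0.822, 0.843 and 0.875, above its median of 0.734 over the other pups. The median r with the members over the 21 pups was 0.76 for the list against 0.07 for all genes tested.

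Counts of list genes at an unadjusted p under 0.05 are to be read against all genes tested. Of those, 2.73% were higher and 4.38% lower for Low Protein, 2.15% and 7.30% for MAM, and 3.83% and 5.25% for Poly I:C. With both directions counted together, the choroid plexus list lay below the share of all genes in each treatment. Its higher genes taken alone lay above their share in Low Protein. In Low Protein, 2 of the 31 genes were higher, namely Wfdc2 (log2 fold change 0.30, limma adjusted p = 0.635) and Cab39l (0.29, adjusted p = 0.674), and 0 were lower. In MAM, 1 was lower, the coagulation factor gene F5 (-1.07, limma adjusted p = 0.525), and 0 higher. In Poly I:C 0 passed in either direction, and after adjustment over all genes 0 passed in any treatment. The median log2 fold change of the list was 0.05 for Low Protein, -0.19 for MAM and 0.02 for Poly I:C, against -0.02, -0.07 and 0.00 over all genes. Without the 3 low pups it was 0.09 for MAM and 0.26 for Poly I:C.

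Cilium genes moved with the members in part. The choroid plexus epithelium and the ependyma carry motile cilia, and 9 of 15 listed cilium genes were tested. The 3 low pups held the lowest values for 4 of the 9, Foxj1, Dynlrb2, Tekt1 and Ak7. Foxj1, the transcription factor of motile cilia, was 1.16, 1.49 and 1.40 in them and 2.23 to 4.27 in the other pups. Dynlrb2, a dynein subunit, was 0.115, 0.168 and 0.142, and 0.295 to 0.502 in the others, but over those 21 pups its r with the members was only 0.05. Ccdc39 did not share the pattern, with 0.152, 0.174 and 0.257 in the low pups and 0.129 to 0.307 in the rest. In MAM, 2 of the 9, Mlf1 (log2 fold change -0.51) and Rsph1 (-0.41), were lower at an unadjusted p under 0.05 (7.30% of all genes), with limma adjusted p-values of 0.497 and 0.521, and the median of the 9 was -0.21. In the other treatments 0 of the 9 passed, with medians of -0.03 (Low Protein) and -0.12 (Poly I:C). The summed level of the 9 was 1.71, 2.16 and 2.19 in the low pups and 3.22 to 5.31 in the rest.

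The cortical hem borders the choroid plexus and releases WNT and BMP signals. Of its 11 genes the 3 low pups held the lowest values for Bmp7, Wnt2b and Rspo2. Bmp7 was 0.140, 0.142 and 0.113 in the low pups and 0.167 to 0.405 in the rest. The more abundant Wnt5a overlapped, at 0.651, 0.753 and 0.835 against 0.585 to 1.04, and Wnt8b was 0.471, 0.632 and 0.443 against 0.553 to 1.08. Bmp4, the third by level, was 0.260, 0.222 and 0.239 in the low pups and 0.170 to 0.978 in the rest. The summed level of the 11 genes was 1.80, 1.99 and 1.90 in the low pups, below the 2.10 to 3.71 of the rest. The mean log2 value minus the saline mean, which weights genes evenly, did not set these pups apart. It was -0.461, -0.447 and -0.429 in them, inside the -0.804 to 0.831 of the rest. Against saline 0 of the 11 passed an unadjusted p under 0.05 in any treatment, and their median log2 fold change was 0.10 for Low Protein, -0.05 for MAM and 0.04 for Poly I:C.

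Genes that work with the members were read next. Of 8 folate genes tested, the 3 low pups held the lowest values for 0. The proton-coupled folate transporter Slc46a1 was 2.19, 2.401 and 2.38 in them and 2.07 to 2.57 in the rest, so the Folr1 pattern did not extend to it. Fpgs, an enzyme of folate retention, was 1.38, 1.26 and 1.23 against 1.10 to 1.37, and the thymidylate synthase gene Tyms was 1.02, 1.14 and 0.944 against 0.933 to 1.31. At an unadjusted p, Shmt1 (serine hydroxymethyltransferase) was higher in Low Protein (log2 fold change 0.29, limma adjusted p = 0.674), MAM (0.40, adjusted p = 0.457) and Poly I:C (0.24, adjusted p = 0.546). All 3 comparisons use the same saline pups, and 0 folate genes passed after adjustment. The medians of the 8 were 0.10 (Low Protein), 0.04 (MAM) and 0.07 (Poly I:C).

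Among 10 genes of thyroid hormone and retinol carriage, on which transthyretin acts, 0 passed at an unadjusted p in any comparison and for 0 were the 3 low pups lowest. The thyroid hormone receptor gene Thra was 18.2, 17.4 and 16.1 in the low pups and 15.8 to 19.6 in the others. Dio3, which inactivates thyroid hormone, was 5.14, 3.89 and 4.77 against 2.39 to 6.01. Of the klotho partners 3 were tested, and Fgfr1, the receptor that klotho joins, was 1.56, 1.77 and 1.41 in the low pups against 1.47 to 2.16. Fgf23 reached at most 0.0178 and Lctl at most 0.0219 in any pup. Of the 3 klotho partners 0 passed at an unadjusted p. The median log2 fold changes of the thyroid and retinol list were 0.05 (Low Protein), -0.04 (MAM) and -0.02 (Poly I:C), and those of the klotho partners 0.07, -0.02 and -0.02.

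Members of the same gene families did not share the full pattern, as the 3 pups together were lowest for 0 of 10 relatives. In part it was shared, as MAM 2.3 and Poly I:C 1.3 lay below the other 21 pups for Kcnj2 and Clic3. By the mean log2 value of the 10 minus the saline mean, MAM 2.3 was lowest (-0.511, against -0.446 for the lowest of the rest). Clic1 was 3.81, 4.01 and 2.88 in the low pups against 3.14 to 4.23 in the others, and Kcnj2 was 1.32, 1.13 and 1.03 against 1.21 to 2.64. Otx1, the relative of Otx2 that is made in cortical progenitors, was 1.28, 1.44 and 1.14 against 0.765 to 2.32. At an unadjusted p Otx1 was higher in Low Protein (log2 fold change 0.39, limma adjusted p = 0.691) and Poly I:C (0.58, adjusted p = 0.353). In MAM, Clic3 was lower (-0.85, limma adjusted p = 0.523), and in Poly I:C Clic5 was higher (0.65, adjusted p = 0.537) and Kcnj4 lower (-0.57, adjusted p = 0.438). The medians of the 10 were -0.08 (Low Protein), -0.12 (MAM) and 0.06 (Poly I:C).

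Markers of the other tissues that a dissection could hold were read in the same pups. For meninges and stroma (10 genes tested), blood (6), endothelium and pericytes (9), thalamus (8), striatum and ganglionic eminence (12) and hippocampus and neocortex (8), the 3 low pups held the 3 lowest values for 0 genes. For eye and pigment epithelium they did so for 1 of 6 genes, Mitf, and the defining genes Rpe65 and Pmel were not among the genes tested. The summed level of the 8 hippocampal and neocortical genes was 248, 274 and 243 in the low pups and 154.7 to 297 in the other 21. Col1a1, the most abundant meningeal gene, was 3.31, 2.89 and 2.47 in them against 1.37 to 17.4, and the summed meningeal level was 7.63 to 9.53 against 4.34 to 38.4. The summed blood level, mostly the globin gene Hbb, was 574 to 836 against 471 to 1167. The summed endothelial level, led by Cldn5, was 42.9 to 66.4 against 39.0 to 82.7. The summed levels of these 4 lists in the 3 pups thus lay within the range of the rest. By the mean log2 value minus the saline mean, which weights genes evenly, 2 of the lists differed. MAM 2.3 was lowest for blood (-0.554, against -0.469 for the lowest of the rest). Poly I:C 1.3 was lowest for endothelium (-0.679 against -0.605). The summed level of thalamus was 3.39, 2.904 and 5.03 against 2.96 to 7.93, with MAM 2.3 just below the rest. The sum of the 6 members was 32.8 to 69.2 in the 3 pups and 123 to 245 in the others.

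**Figure D4:**
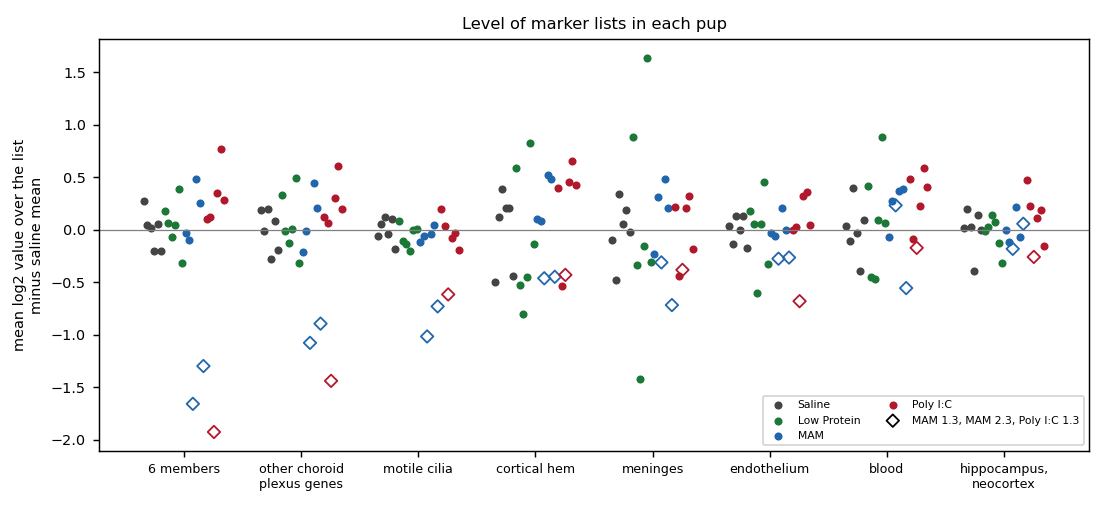
Mean log2 value over the tested genes of a list, minus its saline mean (y axis), for 8 lists (x axis) in each of 24 pups, coloured by group, with open diamonds for MAM 1.3, MAM 2.3 and Poly I:C 1.3. The diamonds lie below all other pups for the 6 members, the other choroid plexus genes and motile cilia, and among the other pups for cortical hem, meninges and hippocampus with neocortex. MAM 2.3 lies lowest for blood and Poly I:C 1.3 for endothelium.

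At the group level a few of these marker genes differed at an unadjusted p under 0.05, and 0 passed after adjustment in any treatment. In Low Protein, 4 of 12 striatum and ganglionic eminence genes were lower (4.38% of all genes), among them the interneuron factors Lhx6 (-0.48, limma adjusted p = 0.607) and Dlx1 (-0.29, adjusted p = 0.674). In MAM, Dlx1 (-0.26) and Lhx6 (-0.34) were lower as well, 2 of 12 against 7.30% of all genes. The median of the 12 was -0.37 for Low Protein and -0.33 for MAM. Of the hippocampal and neocortical genes, Emx2 was higher in Low Protein (0.26, limma adjusted p = 0.674) and Bcl11b lower (-0.29, adjusted p = 0.680). The thalamic gene Lhx9 was higher in Poly I:C (0.48, limma adjusted p = 0.537), and the pericyte gene Rgs5 lower in MAM (-0.28, adjusted p = 0.523). For meninges, blood and eye 0 genes passed in any comparison. The median log2 fold change of the blood genes was 0.01 (Low Protein), 0.09 (MAM) and 0.20 (Poly I:C), and that of the meningeal genes 0.04, -0.04 and -0.03. For endothelium and pericytes the medians were -0.01, -0.08 and -0.01, for thalamus -0.09, -0.22 and 0.26, and for eye 0.10, 0.08 and -0.04. Those of hippocampus and neocortex were -0.03, 0.07 and 0.15. The part of tissue composition in the values of the members was not tested.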

How the data were processed

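The authors trimmed paired reads from stranded mRNA libraries, aligned them to rn6 with STAR (version 2.4.1d), quantified them against RefSeq transcripts in Partek and deposited TPM values with an offset of 0.0001, which sum to 70350.1 in every pup. Of these values 20.9% equal the offset. All 24 pups and 0 further columns were present. Here, log2 of the deposited value was compared with limma (version 3.58.1, R version 4.3.3; lmFit, eBayes with trend), all 24 pups in 1 fit, with Benjamini-Hochberg adjustment over the 13786 genes with a value above the offset in at least 12 pups. The filter of the study, a mean above 1 in every group, keeps 5086 genes and of the members only Ttr, so it served as an alternative. Single members were compared by exact permutation tests over 924 splits. The fits were tested on simulated data. Litters were read from sample names. The members and all 14 gene lists were chosen with earlier results of these data known. Genes are named as the 6 members, the 10 genes most like them, the 3 most abundant of each list and those called. Some of these genes are not reported here, and genes beyond this rule were named after their values were seen. Read depth was estimated and a value's counting error was not modelled. Alternatives covered filter, pseudocount, scaling, variance, litter, block and pups or litters left out. No 2 pups had identical values. Over all genes tested, pups of different groups with the same litter and pup number had r over 0.1 in 4 of 36 pairs. Their numbers were not taken to pair them. This check did not set pup 3 of litter 1 against pup 3 of litter 2. Pup 3 was the lowest in at least 7 of 8 litters for 979 genes, against 130 for pup 1 and 7 for pup 2. In the mean of the members, pup 3 was the lowest of its litter in all 8.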

Additional observations from a re-analysis of the deposited data

Results flagged for a closer look

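Of 24 sets of 6 pups, 1 for each member and group, 6 held a pup far from the others by Dixon's test on log2 values, in which the gap to the nearest pup is divided by the range of the group. Chance alone gives about 1 in 20, and the members vary together. In Poly I:C 1.3 this share was 0.723 for Ttr, 0.668 for Folr1, 0.832 for Clic6, 0.799 for Kl and 0.795 for Kcnj13, each at the low end. In Low Protein 2.3 it was 0.742 for Kl, at 0.0948 against 0.121 to 0.132 in the other Low Protein pups. The 2 low MAM pups are close to each other, and this test cannot single out either of them. Without Poly I:C 1.3 alone, 3 members differed from saline at p under 0.05 in the exact permutation test, the lowest p being 0.00866. This pup was picked from the members' own values, and the share of all genes was not computed for this test. The count is therefore no independent evidence.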

How the results depend on the processing

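In all alternatives 0 members passed an adjusted p under 0.05 in any comparison or F test. With a replicate block, 0 members passed at an unadjusted p and 1228, 1632 and 1466 of all genes did (Low Protein, MAM and Poly I:C in order), so the block changed no call of a member. The 36 pairs of pups with the same litter and pup number had r from -0.12 to 0.15 over all genes tested, with 4 over 0.1.

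Without MAM 1.3, MAM 2.3 and Poly I:C 1.3, chosen after the values were seen, the MAM log2 fold changes reversed to 0.31 for Ttr, 0.19 for Folr1, 0.23 for Clic6, 0.16 for Kl and 0.0586 for Otx2. Those in Poly I:C reversed to 0.37 for Ttr, 0.22 for Folr1, 0.39 for Clic6 and 0.18 for Otx2. There 3 members passed at an unadjusted p (10.9% of all genes) and 3 in the exact test, for which no share of all genes was computed. The median shares of variance became 25.2% between groups, 27.4% between litters and 54.0% within litters. Without the 8 pups numbered 3 in their litter, chosen likewise, Low Protein changes reversed to 0.12 for Kcnj13 and 0.0682 for Otx2, and those in MAM to 0.25 for Ttr, 0.0704 for Folr1, 0.0914 for Clic6, 0.16 for Kl and 0.0612 for Otx2. In Poly I:C they reversed to 0.27 for Ttr, 0.109 for Folr1, 0.30 for Clic6 and 0.20 for Otx2. There 1 member, Kl, passed at an unadjusted p and was higher, as were 7.20% of all genes. The median r between members over all 24 pups was 0.89. Of the first 10 genes most like the members, 5 were shared without the 3 low pups and 6 with Spearman's rho. Kcnj13 in Low Protein reversed to 0.0019 with 1 added before log2 and to 0.0110 with scaling by the median of ratios, and Clic6 in Poly I:C reversed to 0.0377 with 1 added.

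Leaving out 1 pup or litter, Low Protein log2 fold changes ranged from -0.11 to 0.18 for Clic6, -0.13 to 0.19 for Kl, -0.15 to 0.12 for Kcnj13 and -0.17 to 0.0636 for Otx2. MAM changes of Ttr ranged from -0.37 to 0.0458, the latter without MAM 1.3. Poly I:C changes ranged from -0.67 to 0.59 for Ttr, -0.68 to 0.40 for Folr1, -0.73 to 0.49 for Clic6, -0.45 to 0.55 for Kl, -0.30 to 0.42 for Kcnj13 and -0.57 to 0.36 for Otx2, the highest without Poly I:C litter 1. The members at an unadjusted p in MAM ranged from 0 to 1, which was Otx2 without MAM 2.1 or without MAM litter 2. Over all alternatives, 491 to 1834 of all genes passed there. By the exact test the members ranged from 0 to 1 in Low Protein, with 1 without Saline 1.1, and from 0 to 3 in Poly I:C, with 3 without Poly I:C 1.3. No share of all genes was computed for the exact test.

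Over all alternatives the genes called after adjustment ranged from 0 to 14 in Low Protein, 0 to 3 in MAM and 0 to 241 in Poly I:C, the latter without Poly I:C litter 1. Of the genes at an unadjusted p in MAM, 22.8% were higher as deposited, 64.8% with the median of ratios and 55.4% with the upper quartile. In Low Protein these were 38.4%, 51.5% and 39.4%. The causes of these changes were not tested. Depth limits Kl and Otx2 most.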
